A study of Homo sapiens with 5 samples.

Results

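The genes described here encode the core microRNA and RNA interference machinery: the nuclear processing enzyme DROSHA and its partner DGCR8, the export factor XPO5, the cytoplasmic enzyme DICER1 with its partners TARBP2 and PRKRA, and the argonautes AGO1, AGO2, AGO3 and AGO4. They were chosen by name. Each of the 10 was represented by the 1 array row annotated to it alone, out of 18417 genes with a row of their own. Rows shared with another symbol were not used for them. The cells were D54, an established human glioma line. Total RNA was taken from D54 cells transfected with an shRNA against TIP-1 (3 arrays, each with a different hairpin, called shRNA 1, 2 and 3) and from D54 cells transfected with a control shRNA (2 arrays from independent clones, called control 1 and control 2). TIP-1 is a small PDZ domain protein encoded by TAX1BP3. Cells were reseeded and grown overnight before RNA was taken. Cells of every array had been given a hairpin, and cells without one were not analysed here. The labels do not give the vector, the hairpin sequences, or whether the TIP-1 shRNA cells were clones.

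MicroRNAs begin as long transcripts whose hairpins are cut out in the nucleus by DROSHA bound to DGCR8, carried to the cytoplasm by XPO5 and trimmed to short duplexes by DICER1. A strand of each duplex is loaded into an argonaute protein, which pairs with target messages and represses them. Short hairpin RNAs made by researchers share the DICER1 and argonaute steps of this route, and AGO2 is the human argonaute best known for cutting a fully matched target. Whether the hairpins used here also passed through DROSHA cannot be read from the labels, which do not give the vector. Protein activity was not measured, and the values below are transcript signals of bulk cultures, in which fewer cells with a transcript and less of it per cell cannot be told apart.

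Signals are log2 values as deposited, and a difference is the mean of the TIP-1 shRNA arrays minus the mean of the controls. Array medians were 7.95, 7.90 and 7.88 in shRNAs 1, 2 and 3, against 7.96 and 7.98 in controls 1 and 2, while upper quartiles were 9.79, 9.80 and 9.83 against 9.77 and 9.77. The 10 genes were brighter than 68.4% to 90.6% of rows, a range that includes the upper quartile, where the TIP-1 shRNA arrays read slightly higher. The part of this shift in their differences was not tested. The silenced gene TAX1BP3 read 9.81, 9.61 and 9.55 in shRNAs 1, 2 and 3, against 12.05 and 12.10 in the controls (difference -2.42, limma adjusted p = 0.011), on a row shared with a read-through transcript. That call was lost without shRNA 2, control 1 or control 2, at limma adjusted p = 0.129, 0.386 and 0.387. Of the glioma and astrocyte markers, VIM (13.84 to 14.02), CD44 (13.73 to 13.80) and EGFR (11.12 to 11.30) were bright on all arrays. NES (7.78 to 8.06), SOX2 (7.05 to 7.26) and OLIG2 (7.13 to 7.50) lay near or below the array medians. GFAP lay between 7.86 and 8.14, close to the array medians, and S100B, SLC1A3 and AQP4 lay between 5.36 and 6.57, but no detection call was given, so none could be called absent.

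None of the 10 genes passed the test (limma, Benjamini-Hochberg over all 33297 rows, adjusted p under 0.05), against a background of 0.00300% of rows, which was the row of TAX1BP3. At an unadjusted p under 0.05 there was 1, AGO4, where 6.02% of genes reached that level. The test has little reach for small differences. In simulated arrays of this design, 1.2% of true changes of 0.5 log2 units and 67.2% of those of 1 unit were called. Each simulated set held 200 changed rows of 0.5 to 3 units, and many changed rows ease the adjusted threshold. The real arrays had 1 row past it, so the reach for the 10 genes is likely to be smaller than these shares. Differences of the 10 genes lay between -0.14 and 0.46, with a median of 0.03 beside a median of -0.01 over all genes. Above 0 were 7 of the 10, where 47.6% of all genes were. In AGO4, DGCR8 and XPO5 all 3 TIP-1 shRNA arrays lay above both controls, an arrangement seen in 12.5% of genes, and in PRKRA all 3 lay below both, as in 14.1% of genes. With either direction counted, that is 4 of 10 genes beside 26.5% of all genes.

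**Figure D1:**
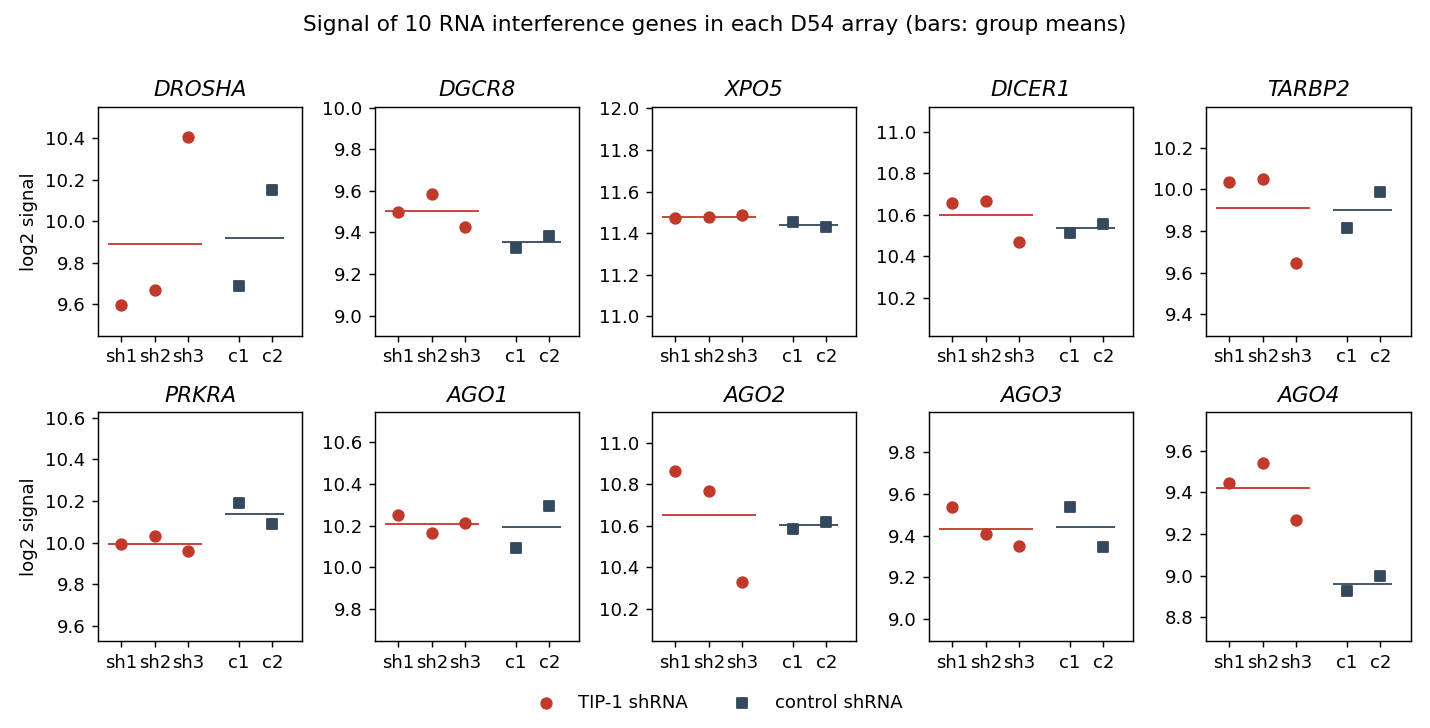
Log2 signal of each of the 10 genes on each array: sh1 to sh3 are TIP-1 shRNAs 1 to 3 (circles) and c1 and c2 the controls (squares), with lines at the group means. Every panel spans the same height, so AGO4 shows the clearest gap between groups and DROSHA the widest scatter.

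In the nucleus, DROSHA (row 8111286) is the RNase III enzyme that releases microRNA hairpins. It read 9.60, 9.67 and 10.40 in shRNAs 1, 2 and 3, against 9.69 and 10.15 in controls 1 and 2. shRNA 3 was the highest array and shRNAs 1 and 2 the lowest, so the TIP-1 shRNA arrays lay on either side of the controls. The mean difference was -0.03 (SE 0.27, 95% interval -0.69 to 0.63, limma adjusted p = 0.98). DROSHA also differed between the controls by 0.46, a gap that 4.05% of genes exceeded. The interval, the widest of the 10 genes, runs from a 0.619-fold to a 1.55-fold level relative to the controls.

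DGCR8 (row 8071314), the RNA-binding partner that positions DROSHA on the hairpin, read 9.50, 9.58 and 9.42 in shRNAs 1, 2 and 3, against 9.32 and 9.38 in the controls. All 3 TIP-1 shRNA arrays were higher than both controls, with the nearest pair, shRNA 3 and control 2, only 0.04 apart. The difference of 0.15 (SE 0.09, 95% interval -0.07 to 0.37, limma adjusted p = 0.72) did not pass. With quantile normalization the groups overlapped.

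XPO5 (row 8126588), the exportin that carries hairpin precursors out of the nucleus, was the steadiest of the 10. It read 11.47, 11.48 and 11.49 in shRNAs 1, 2 and 3, against 11.46 and 11.43 in the controls. Its difference of 0.04 (SE 0.08, 95% interval -0.15 to 0.23) did not pass, at a limma adjusted p of 0.91. The groups did not overlap, but the gap between them was 0.02, and the difference was 0.02 after quantile normalization.

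DICER1 (row 7981111), the cytoplasmic RNase III enzyme that cuts precursors and shRNAs into short duplexes, read 10.66, 10.67 and 10.47 in shRNAs 1, 2 and 3, against 10.51 and 10.56 in the controls. shRNAs 1 and 2 lay above both controls and shRNA 3 below both. The mean difference was 0.06 (SE 0.10, 95% interval -0.17 to 0.30, limma adjusted p = 0.87). TARBP2 (row 7955829), a double-stranded RNA-binding partner of DICER1, was arranged in the same way. It read 10.04, 10.05 and 9.64 in shRNAs 1, 2 and 3, against 9.81 and 9.99 in the controls, a difference of 0.01 (SE 0.15, 95% interval -0.35 to 0.37).

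PRKRA (row 8057034), or PACT, binds DICER1 as TARBP2 does and is also known as an activator of the RNA-dependent kinase PKR. It read 9.99, 10.03 and 9.96 in shRNAs 1, 2 and 3, against 10.19 and 10.09 in the controls. All 3 TIP-1 shRNA arrays were below both controls, and the SD among them was 0.04 (n = 3) beside 0.07 in the controls (n = 2). The difference of -0.14 (SE 0.08, 95% interval -0.35 to 0.06) did not pass, at a limma adjusted p of 0.72. A processed copy, PRKRAP1, is in the gene table, and whether the probes tell it apart was not tested.

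AGO2 (row 8153201), the slicing argonaute on which shRNA knock-down is known to draw, had nearly equal controls and widely spread TIP-1 shRNA arrays. It read 10.86, 10.77 and 10.33 in shRNAs 1, 2 and 3, against 10.58 and 10.62 in the controls. shRNAs 1 and 2 were above both controls and shRNA 3 was below both. Relative to the control mean, shRNA 1 was higher by 0.26, shRNA 2 by 0.17, and shRNA 3 fell by 0.27, without a test since each hairpin had 1 array. The mean difference was therefore small, at 0.05 (SE 0.17, 95% interval -0.36 to 0.46, limma adjusted p = 0.95). TAX1BP3 itself read 9.81, 9.61 and 9.55 in shRNAs 1, 2 and 3. For TAX1BP3 shRNA 2 was close to shRNA 3, but for AGO2 it was close to shRNA 1. The controls, with TAX1BP3 at 12.05 and 12.10, had AGO2 values between those of shRNAs 2 and 3. A link between the signals of AGO2 and TAX1BP3 was not tested.

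AGO4, AGO1 and AGO3 lie next to each other in that order on chromosome 1, each on the plus strand, in the RefSeq gene table of GRCh38.p14. AGO4 (row 7900009), an argonaute that in humans is regarded as lacking slicing activity, had the largest difference of the 10 genes. It read 9.45, 9.54 and 9.27 in shRNAs 1, 2 and 3, against 8.93 and 9.00 in the controls. All 3 TIP-1 shRNA arrays were above both controls, and shRNA 3, the lowest of them, still lay 0.27 above control 2. AGO4 was 9.42 ± 0.14 (SD, n = 3) with TIP-1 shRNA and 8.96 ± 0.05 (SD, n = 2) in the controls, which makes it 1.37-fold higher (difference 0.46, SE 0.11, 95% interval 0.20 to 0.72). It did not pass over all rows, at a limma adjusted p of 0.71, and its p ranked 96 among 18417 genes. A larger difference in size was seen in 1.78% of genes. In the 12 alternatives run, its difference stayed between 0.40 and 0.53, with a lowest limma adjusted p of 0.24. The row filters and the eBayes setting among them cannot change a difference.

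The adjacent argonautes gave no such separation. AGO1 (row 7900030) read 10.25, 10.16 and 10.21 in shRNAs 1, 2 and 3, against 10.09 and 10.30 in the controls, so every TIP-1 shRNA array lay between the controls (difference 0.01, SE 0.10, 95% interval -0.22 to 0.25). AGO3 (row 7900051) read 9.53, 9.41 and 9.35, against 9.54 and 9.35, and again every TIP-1 shRNA array lay between the controls (difference -0.01, SE 0.10, 95% interval -0.26 to 0.24). Taken within each array, the AGO4 signal minus the AGO1 signal was -0.80, -0.62 and -0.94 in shRNAs 1, 2 and 3, against -1.17 and -1.30 in the controls. The AGO4 signal minus the AGO3 signal was -0.09, 0.13 and -0.08, against -0.61 and -0.35. Both log ratios were higher in all 3 TIP-1 shRNA arrays, by 0.44 against AGO1 and 0.47 against AGO3 on average. AGO4 was picked out here for its separation, so these ratios restate it as a description and carry no test. The argonautes are similar in sequence, and how far the probes of 1 row bind the transcripts of another was not tested.

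**Figure D2:**
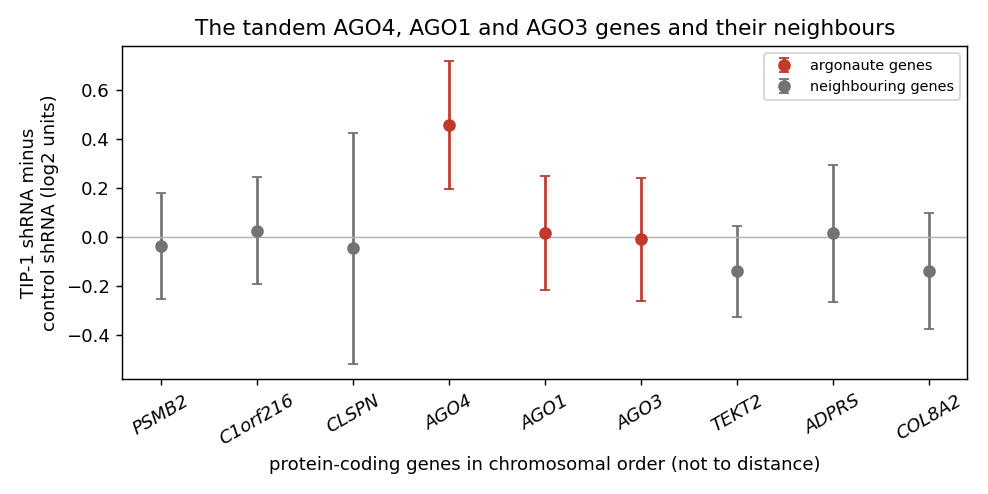
Differences (TIP-1 shRNA minus control shRNA, log2 units) with limma 95% intervals for AGO4, AGO1 and AGO3 and the 3 protein-coding genes on either side, in chromosomal order. AGO4 stands at 0.46, while the other 8 genes lie between -0.14 and 0.02. In TEKT2, next to AGO3, all 3 TIP-1 shRNA arrays lay below both controls (difference -0.14), and it did not pass.

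The 250 bases before the annotated starts of these genes are shown because only 1 of 3 adjacent paralogs was separated between groups. The sequences are from RefSeq, GRCh38.p14, plus strand, 5′ to 3′, at chr1:35807766-35808015 for AGO4, chr1:35882959-35883208 for AGO1 and chr1:35930855-35931104 for AGO3. Capitals mark matches to the GC box GGGCGG or its reverse complement CCGCCC and to the CCAAT box CCAAT or its reverse complement ATTGG.
AGO4: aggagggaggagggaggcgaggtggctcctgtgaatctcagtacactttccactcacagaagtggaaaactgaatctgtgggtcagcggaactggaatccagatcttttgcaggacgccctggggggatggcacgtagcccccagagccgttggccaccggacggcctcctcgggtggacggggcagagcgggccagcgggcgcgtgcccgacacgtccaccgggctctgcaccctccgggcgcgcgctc
AGO1: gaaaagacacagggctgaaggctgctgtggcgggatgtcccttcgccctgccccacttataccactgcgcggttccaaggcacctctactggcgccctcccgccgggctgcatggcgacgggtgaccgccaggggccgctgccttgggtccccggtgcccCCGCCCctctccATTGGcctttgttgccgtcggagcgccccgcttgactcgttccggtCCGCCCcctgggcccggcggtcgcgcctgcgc
AGO3: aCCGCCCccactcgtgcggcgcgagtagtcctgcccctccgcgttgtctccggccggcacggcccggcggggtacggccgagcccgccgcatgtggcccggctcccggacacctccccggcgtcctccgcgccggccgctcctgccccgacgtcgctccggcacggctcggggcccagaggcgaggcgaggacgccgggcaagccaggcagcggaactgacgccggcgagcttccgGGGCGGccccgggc

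The windows of AGO1 and AGO3 hold 2 GC boxes each and that of AGO1 also 1 CCAAT box, while the window of AGO4 holds neither motif. A GC box is found in 42.6% and a CCAAT box in 32.0% of the 35116 upstream windows of the same length in the table. None of the 3 windows holds the TATA box TATAAA or its reverse complement TTTATA, which 10.7% of windows hold. CpG pairs number 20 in the AGO4 window, 25 in that of AGO1 and 41 in that of AGO3, beside a median of 11 over all windows. These are letter matches, and no binding was measured. A link between these motifs and the AGO4 difference, which did not pass, was not tested.

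The TIP-1 shRNA arrays, 1 per hairpin, differed among themselves for several of the 10 genes. shRNAs 1 and 2 each had 6 genes above both controls (DGCR8, XPO5, DICER1, TARBP2, AGO2 and AGO4) and 2 below both (DROSHA and PRKRA). Over all genes, 32.2% lay above and 31.2% below both controls in shRNA 1, and 30.8% above and 37.7% below in shRNA 2. shRNA 3 had 4 above both (DROSHA, DGCR8, XPO5 and AGO4) and 4 below both (DICER1, TARBP2, PRKRA and AGO2), where 35.5% and 41.9% of all genes were. DICER1, TARBP2 and AGO2 were above both controls in shRNAs 1 and 2 and below both in shRNA 3, an arrangement of 5.00% of genes. DROSHA had the opposite arrangement, as 5.42% of genes did. The median of the 10 genes relative to the control mean was 0.11, 0.09 and -0.02 in shRNAs 1, 2 and 3, beside medians over all genes of 0.00, -0.01 and -0.02. Without shRNA 3, both remaining TIP-1 shRNA arrays lay outside the controls in 8 of the 10 genes, where 43.0% of all genes did, beside 4 of 10 and 26.5% with all arrays. The same count was 4 without shRNA 1 (41.7% of all genes), 4 without shRNA 2 (33.6%), 6 without control 1 (57.9%) and 6 without control 2 (51.0%). With 1 array per hairpin these contrasts carry no test, and the 3 comparisons share both controls.

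**Figure D3:**
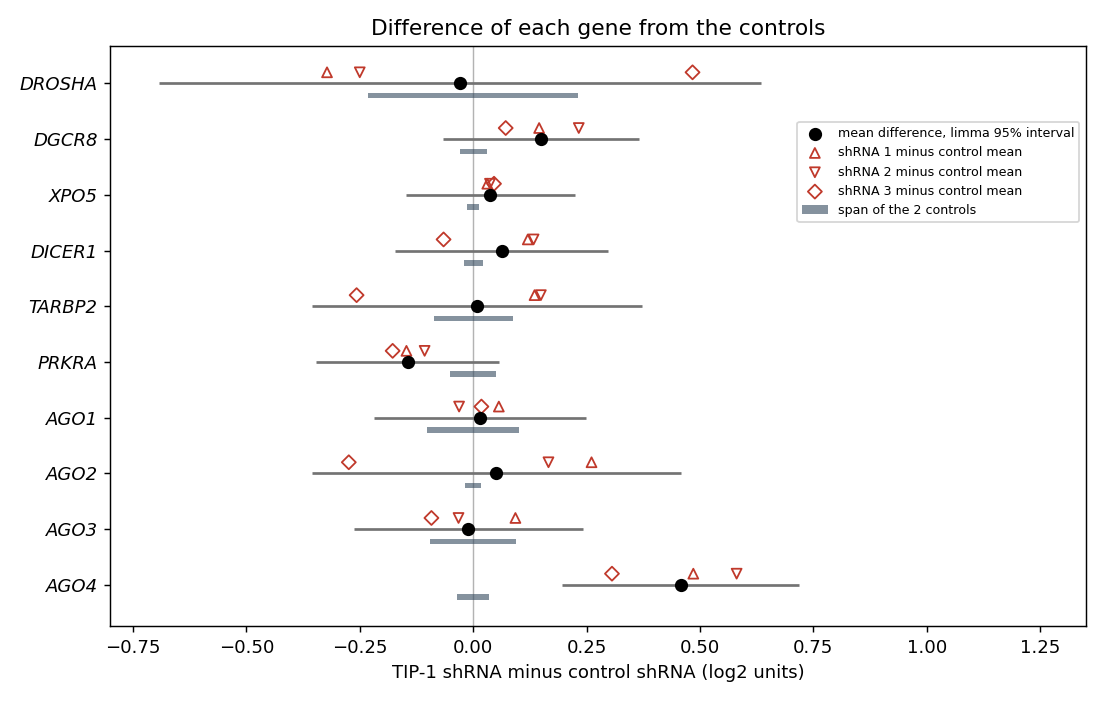
Difference of each gene from the control mean in log2 units: filled circles with lines are TIP-1 shRNA minus control shRNA with limma 95% intervals, open symbols the single shRNA arrays, and bars the span of the 2 controls around their mean. The AGO4 interval (0.20 to 0.72) is the 1 that does not reach 0, and the shRNA 3 symbols of DICER1, TARBP2, AGO2 and DROSHA lie on the other side of 0 from those of shRNAs 1 and 2.

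The genes whose profile over the 5 arrays was nearest to that of AGO2 were SLC7A5 (Euclidean distance of mean-centred log2 signals 0.049), VLDLR (0.062) and CYP4F3 (0.076). Nearest to DICER1 were LIX1L (0.018), PPP2R1B (0.024) and ELOVL1 (0.028). All 6 were higher in shRNAs 1 and 2 than in shRNA 3, as AGO2 and DICER1 were, because they were chosen by that profile. SLC7A5 read 11.95, 11.84 and 11.45 in shRNAs 1, 2 and 3, against 11.64 and 11.72 in the controls. With 5 arrays and 18417 genes to choose from, close profiles are many, and nothing is implied about their control.

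Genes that act beside this machinery were read from the same fit, and none of their rows passed over all rows. The silencing effectors, which argonautes recruit to shorten and decap messages, were all measured (28 of 28): 20 were higher and 8 lower, with a median of 0.05. In 7 of them all 3 TIP-1 shRNA arrays lay above both controls and in 0 below, beside 12.5% and 14.1% of all genes. The deadenylase subunit PAN2 read 9.41, 9.33 and 9.59 in shRNAs 1, 2 and 3, against 9.14 and 9.00 in the controls (difference 0.37, SE 0.11, limma adjusted p = 0.71). TNRC6C, a GW182 scaffold that binds argonautes, read 9.41, 9.35 and 9.28, against 9.12 and 9.11 (difference 0.23, SE 0.08, limma adjusted p = 0.71). It was named after its values were seen, as the other effector under an unadjusted p of 0.05. On the lower side, the poly(A)-binding protein PABPC1 differed by -0.23, but control 2 alone was high, at 13.31 beside 12.89 in control 1, and the difference was -0.02 without control 2 and -0.44 without control 1.

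Of 28 processing cofactors, 25 were measured, 15 higher and 10 lower, with a median of 0.01. METTL3, the methyltransferase that marks primary microRNAs, had the smallest p on the higher side (0.20, SE 0.08, limma adjusted p = 0.71), and the RNA-editing enzyme ADARB1 on the lower side (-0.17, SE 0.09, limma adjusted p = 0.71). Among 20 of 22 genes of argonaute loading and small RNA turnover the median was -0.03, and the smallest p on each side belonged to the exonuclease XRN2 (0.08) and the helicase DHX9 (-0.13). The 13 measured sensors of double-stranded RNA, of 14 listed, had a median of -0.04, with 5 higher and 8 lower. OASL, an interferon-induced relative of the oligoadenylate synthetases, had the smallest p on the lower side (7.44, 7.49 and 7.31 in shRNAs 1, 2 and 3, against 7.57 and 7.66 in the controls) and the adaptor TICAM1 on the higher side (0.07). Of the germline PIWI group, measured for 13 of 13 genes, 12 lay below every array median and the phospholipase PLD6 did not. MAEL read 5.39, 5.23 and 5.28 in shRNAs 1, 2 and 3, against 5.46 and 5.45 in the controls, and DDX4 read 6.15, 5.94 and 6.01 against 5.88 and 5.82. The median difference of the group was -0.05.

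**Figure D4:**
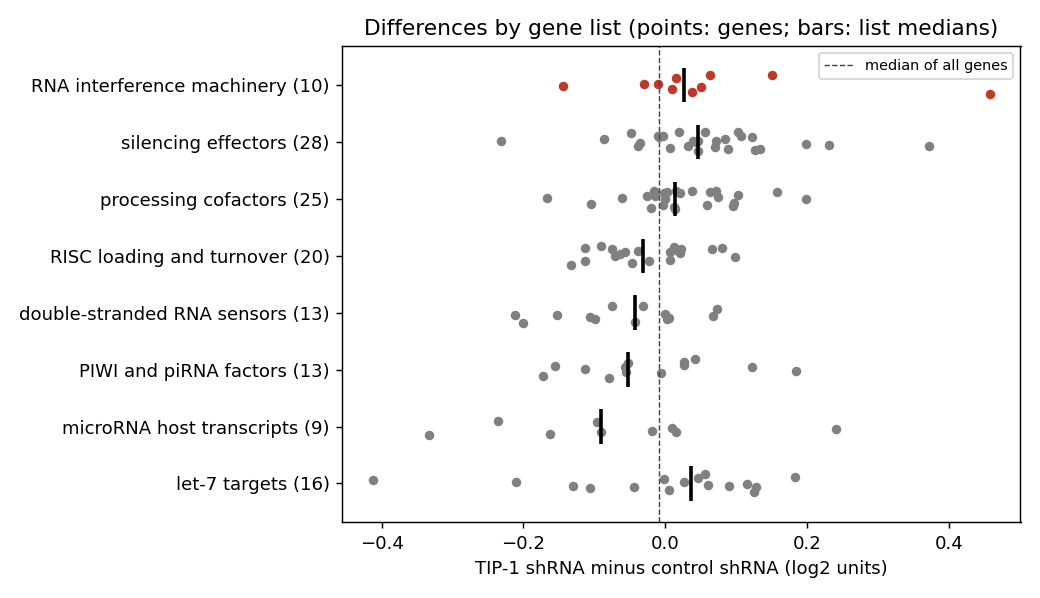
Differences (TIP-1 shRNA minus control shRNA, log2 units) of the 10 RNA interference genes and of 7 lists of related genes, 1 point per gene, with bars at list medians and the number of genes in brackets. List medians lie between -0.09 and 0.05 and AGO4, at 0.46, is the rightmost point.

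The route's own substrates were read from host transcripts and hairpin rows. Of 22 microRNA host transcripts 9 were measured, 3 higher and 6 lower (median -0.09). MIR31HG read 5.33, 5.30 and 5.20 in shRNAs 1, 2 and 3, against 5.54 and 5.68 in the controls (difference -0.33, SE 0.09, limma adjusted p = 0.71), and MIR9-1HG had the smallest p on the higher side at 0.24, a value that came to 0.06 without control 1 and 0.42 without control 2. The annotation also names 173 rows of microRNA hairpins, a group added after the annotation was read. In 14 of them all 3 TIP-1 shRNA arrays were above and in 31 below both controls, beside 12.5% and 14.1% of all genes. Their median difference was -0.05, and none passed. Differences ran from -0.47 for MIRLET7A2 to 0.60 for MIR24-2, both named after their values were seen. MIR24-2 read 7.64, 7.30 and 8.38 in shRNAs 1, 2 and 3, against 7.22 and 7.13 in the controls, with an SE of 0.30, and its difference was 0.29 without shRNA 3. The smallest p on each side belonged to MIR125B1 (0.34, SE 0.10) and MIR30C1 (-0.35, SE 0.09), both dim rows. The array-wide lower quartile was 6.42, 6.40 and 6.35 in shRNAs 1, 2 and 3, against 6.45 and 6.44 in the controls, so dim rows in general ran slightly lower in the TIP-1 shRNA arrays. The part of this shift in the hairpin rows was not tested. Such rows report precursor or host RNA and not the mature microRNA.

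The let-7 family, whose mature forms are known to repress DICER1 itself as well as growth genes, had 9 hairpin rows, and all 9 matched a mature sequence in RefSeq (GRCh38.p14). The mature forms are shown for the hairpins with the smallest p on each side and for let-7a, whose MIRLET7A2 row had the largest difference. Capitals mark the seed, bases 2 to 8, which all 7 distinct mature forms share.
let-7a-5p: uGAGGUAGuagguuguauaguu
let-7i-5p: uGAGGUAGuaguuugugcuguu
let-7e-5p: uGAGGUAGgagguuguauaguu

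The MIRLET7I row read 8.09, 7.83 and 8.02 in shRNAs 1, 2 and 3, against 8.29 and 8.32 in the controls (difference -0.32, SE 0.10, limma adjusted p = 0.71), with no overlap. MIRLET7A2 read 7.58, 7.48 and 7.84, against 8.36 and 7.86, so the groups were parted by 0.02 only (difference -0.47, SE 0.18, but -0.22 without control 1 and -0.72 without control 2). MIRLET7E read 7.01, 6.80 and 7.14, against 6.95 and 6.59, and overlapped (difference 0.22, but 0.04 without control 2 and 0.40 without control 1). Of the 9 let-7 rows, 3 were higher and 6 lower, none past the threshold. Of the 20 listed let-7 targets, 16 were measured, 10 higher and 6 lower, with a median of 0.04. The RNA-binding protein IGF2BP3 had the smallest p on the higher side (0.18, SE 0.12, limma adjusted p = 0.73), with 0.30 without control 1, 0.07 without control 2 and 0.11 without shRNA 3. HMGA1, a chromatin protein, had the smallest p on the lower side at -0.41 (SE 0.29, but -0.72 without shRNA 3 and -0.22 without shRNA 2), with 10.39, 10.26 and 11.26 in shRNAs 1, 2 and 3, against 11.06 and 11.04 in the controls. Like DROSHA, HMGA1 was below both controls in shRNAs 1 and 2 and above both in shRNA 3.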

How the data were processed

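The deposited table holds log2 signals, 1 per transcript cluster, which the authors made with the Affymetrix Exon Array Computational Tool, per the series' design text. No source used here states its version, its background step or how arrays were normalized. That text speaks of the exon array, whereas the row identifiers are those of the gene-level array's annotation. Quantiles nearly coincided, so values were used as deposited. No detection call or background signal was available, and the number of arrays limits the precision.

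All 33297 rows entered 1 fit with lmFit and eBayes (limma 3.58.1, R 4.3.3; two-sided, Benjamini-Hochberg adjustment, threshold 0.05), which was checked on 5 simulated sets with 200 changed rows each. Genes take their brightest row with 1 symbol, 18417 in all; each of the 10 genes has 1 such row. P-values measure the spread between clones and between hairpins. The alternatives were other normalizations, row filters, eBayes settings, array weights, a replicate block and leaving out each array. Named are the 10 genes, TAX1BP3, per list the gene with the smallest p on each side, and the 3 nearest profiles to AGO2 and DICER1. The genes, lists and rules were chosen with earlier results of these data known. List genes without a matched row were not analysed here.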

Additional observations from a re-analysis of the deposited data

How the results depend on the processing

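Of 120 values of the 10 genes over 12 alternatives, 101 kept their sign and side of the threshold, 19 changed sign and 0 became calls. The row filters and the eBayes setting cannot change a difference or its sign. For the 10 and the named list genes the replicate block gave the same differences as leaving out shRNA 3, so those values repeat. The changes of sign were all in genes with differences near 0. AGO1 came to -0.00365 with array weights and -0.0217 with quantile normalization, and TARBP2 to -0.0165 with quantile normalization. AGO3 came to 0.0507 and DROSHA to 0.0316 once arrays were centred on their medians, a step that shifts all differences up. Leaving out 1 array gave -0.088 to 0.117 for AGO1 (below 0 at -0.0064 without shRNA 1 and -0.0876 without control 1), -0.054 to 0.213 for AGO2 (-0.0541 without shRNA 1, -0.0066 without shRNA 2), -0.105 to 0.084 for AGO3 (0.000563 without shRNA 2, 0.0304 without shRNA 3, 0.0842 without control 1), -0.286 to 0.202 for DROSHA (0.117 without shRNA 1, 0.0807 without shRNA 2, 0.202 without control 2) and -0.078 to 0.142 for TARBP2 (-0.0539 without shRNA 1, -0.0608 without shRNA 2, -0.0778 without control 1). The median of the 10 genes was 0.026 as deposited, -0.0019 with quantile normalization, 0.087 with median centring and 0.014 to 0.090 when 1 array was left out. Genes with the TIP-1 shRNA arrays outside both controls numbered 4, 3 with quantile normalization, and 4 to 8 with any 1 array removed (8 with shRNA 3 removed). Over all genes that share was 26.5% as deposited, 33.6% to 57.9% with 1 array removed and not computed with quantile normalization. Rows past the threshold numbered 1, but 2 with array weights, 15 with the replicate block and 0 to 6 when 1 TIP-1 shRNA array was left out. With single-symbol rows only there were 0, since the shared row of TAX1BP3 was left out. None of the 10 genes was among them. TAX1BP3 lay between -2.50 and -2.37 when 1 array was left out. With the replicate block, AGO3 came to 0.0304 and AGO4 to 0.53 (limma adjusted p = 0.243), a value to which shRNA 3 does not contribute. Deviations from the group means correlated at r = 0.049 between the arrays numbered 1 and at -0.053 between those numbered 2, so no pairing was assumed. The 21 other named list genes kept their sign and side in all 242 values, though some sizes moved. List medians near 0 were less stable. Median centring took them to 0.075 for cofactors, 0.030 for loading, 0.018 for double-stranded RNA sensors, 0.0088 for the PIWI group and -0.029 for host transcripts. The median of the sensors was 0.042 without shRNA 1, 0.0185 without shRNA 2 and -0.114 without shRNA 3, and 0.001 among bright rows. That of the let-7 targets was -0.028 without control 1 and that of the cofactors 0.067 without control 2. The 10 genes have 1 row each, so averaging rows gave no further value. Apart from the single-symbol filter, the causes of these changes were not tested.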
